A study of Mus musculus with 32 samples.

Results

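The comparison described here is the response to glucose of islets that make human islet amyloid polypeptide (IAPP), taken from 16 of the 32 RNA-seq libraries of the study. Libraries were chosen by their labels alone: 8 of human IAPP islets cultured at 16.7 mM glucose and 8 at 11.1 mM glucose. All 16 carried the human IAPP gene at the mouse Iapp locus, placed there by homologous recombination (hIAPP), so the insert does not differ between the groups compared. Mice were on the C57BL/6NHsd background, 10 weeks old and of both sexes. Islets were isolated with collagenase, rested overnight and cultured for 48 h at either glucose level, and 11.1 mM is therefore the control. The study ran 8 separate sets of experiments, each with 1 library per group, and glucose levels were compared within sets. The number of mice per set is not given in the labels, so p-values measure the spread between sets. The other 16 libraries, from wild-type littermates with mouse Iapp (mIAPP) under the same 2 glucose levels, are used only to test where the hIAPP response differs.

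A pancreatic islet is a cluster of endocrine cells, mostly beta cells that make insulin, with alpha cells (glucagon), delta cells (somatostatin), PP cells (pancreatic polypeptide) and vessel, stromal and immune cells between them. Glucose that enters a beta cell is metabolised, closes potassium channels through ATP, opens calcium channels and releases insulin; over hours it also changes transcription through calcium-activated factors and through the carbohydrate sensor ChREBP. IAPP is released from the same granules as insulin. Human IAPP can aggregate into amyloid fibrils at high secretory load, and mouse IAPP does not form them. Each of the 13 defining endocrine markers looked at was found in all 16 libraries, in CPM (counts scaled to the size of each library): Ins2 ran from 93460 to 160900, Gcg (glucagon) from 1060 to 13530, Sst (somatostatin) from 488 to 2007 and Ppy (pancreatic polypeptide) from 315 to 4135.

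The response was broad. Of 16428 genes tested, 10768 (65.5%) changed at an adjusted p under 0.05: 5294 (32.2%) were higher and 5474 (33.3%) lower at 16.7 mM (edgeR quasi-likelihood test with the set as a block, Benjamini-Hochberg adjustment over all genes). These shares are the background for every count of members below, and the median log2 change of all genes was -0.02. "Rose" and "fell" are used for genes past that threshold. Over 2-fold, 1349 genes (8.21%) rose and 2136 (13.0%) fell. For 2345 genes (14.3%) all 8 libraries at 16.7 mM lay above all 8 at 11.1 mM, and for 1376 (8.38%) below; groups that "did not overlap" are meant so. Changes are given as log2 of the ratio of 16.7 to 11.1 mM with their standard error (SE), and levels as the lowest, median and highest library of 8. In whole islets, fewer cells of a type and less RNA per cell cannot be told apart.

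The libraries themselves also differed with glucose. Counts from mitochondrially encoded genes took 2.68, 3.50 and 6.76% of a library at 16.7 mM and 5.23, 18.1 and 27.2% at 11.1 mM (lowest, median, highest). The share was lower at 16.7 mM in 8 of 8 sets (exact paired permutation test, two-sided p = 0.007812, the smallest that 8 pairs can give; adjusted p = 0.0166 over 17 library measures). At 11.1 mM the libraries of sets 3 and 4 were the 2 under 10%. Totals were 24.68 to 43.7 M counts at 16.7 mM and 18.78 to 34.8 M at 11.1 mM (exact p = 0.08594). Sums of Y-linked genes and of marker lists, here and below, are scaled to the whole library total, mitochondrial counts included. Levels of single genes are instead scaled with TMM. Y-linked genes summed to 28.5 to 198.5 CPM at 16.7 mM and 11.4 to 149.3 CPM at 11.1 mM. The sum was higher at 16.7 mM in 7 of 8 sets (exact paired permutation test, p = 0.01562, adjusted p = 0.0266). Of the 4 Y-linked genes tested singly, 1 rose and 0 fell (median 0.14, from -0.11 to 1.05). Whether the mix of male and female islets differed within sets was not tested. With the mitochondrial share as a covariate, 1643 genes (10.0%) rose and 1538 (9.36%) fell; 1509 and 1295 of these were also called without it. With only the libraries under 10%, 2047 rose and 1834 fell. The share and the glucose level move together, so the part of the share in a result was not tested; where the covariate ends the call of a gene chosen by rank or moves its value by over 1.5 times, that is said beside it or its list. Genes named after their values were seen are covered by the count of their list with the covariate.

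The clearest group was the machinery that folds new secretory proteins in the endoplasmic reticulum (ER). Proinsulin and proIAPP are folded there, and a rising load engages the unfolded protein response, in which the sensors ATF6 and IRE1 switch on chaperone genes. Of 29 ER chaperone and sensor genes, 28 rose and 0 fell, with a median log2 change of 1.38. With the mitochondrial covariate 22 rose and 0 fell. Creld2 (ENSMUSG00000023272, chromosome 15, 88819646 to 88826683 on GRCm38), an ER stress-inducible chaperone partner, stood at 162, 189 and 236 CPM at 16.7 mM and 59.7, 64.9 and 75.2 CPM at 11.1 mM. It rose by 1.56 ± 0.07 (SE, adjusted p = 3.76e-15), and the groups did not overlap. Sdf2l1, a co-factor of the chaperone BiP, stood at 253, 318 and 355 CPM at 16.7 mM and 59.97, 68.5 and 79.7 CPM at 11.1 mM, again without overlap, and rose 4.52-fold (2.18 ± 0.12, adjusted p = 1.59e-13). Manf, a secreted ER stress protein that protects beta cells, rose by 1.41 ± 0.07, and the BiP partner Dnajb11 by 1.16 ± 0.06. Hspa5, which encodes BiP itself, was at 2577 ± 177 against 858 ± 212 CPM (SD, n = 8 each) and rose by 1.62 ± 0.11; Pdia6, a disulfide isomerase, rose by 1.71 ± 0.12. These last 2 genes were chosen for their promoters after their values were seen.

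Many genes of the unfolded protein response carry an ER stress response element, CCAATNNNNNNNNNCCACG, which ATF6 binds together with NF-Y. RefSeq promoters on GRCm38.p6 matched 23 of the 29 genes, and 9 of the 23 (39.1%) held this element on either strand within 250 bases upstream of a start, against 35 of 27018 symbols (0.13%) in the whole table. The 9 were Hspa5, Hsp90b1, Calr, Canx, Pdia6, Dnajc3, Creld2, Syvn1 and Derl3, and all 9 rose. No match was found in 19 promoters of the translocation list or 24 of the ER-Golgi list below, whose members rose as well. 3 of these promoters are printed 5′ to 3′ up to the base before the start, to show where the element lies in genes that rose together; capitals mark the element, on the opposite strand in Creld2, with 46, 107 and 79 bases between it and the start in the order shown.
Hspa5 (chr2:34771840-34772089, plus strand): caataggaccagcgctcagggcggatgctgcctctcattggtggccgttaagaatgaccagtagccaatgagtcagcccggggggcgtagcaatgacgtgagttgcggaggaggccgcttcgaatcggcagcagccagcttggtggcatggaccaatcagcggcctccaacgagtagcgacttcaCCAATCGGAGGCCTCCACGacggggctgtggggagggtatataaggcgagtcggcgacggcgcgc
Creld2 (chr15:88819396-88819645, plus strand): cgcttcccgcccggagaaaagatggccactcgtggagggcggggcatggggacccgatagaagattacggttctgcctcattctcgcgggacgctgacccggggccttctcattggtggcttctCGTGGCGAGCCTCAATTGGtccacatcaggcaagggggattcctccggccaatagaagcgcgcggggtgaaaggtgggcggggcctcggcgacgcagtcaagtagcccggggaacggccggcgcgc
Pdia6 (chr12:17266339-17266588, plus strand): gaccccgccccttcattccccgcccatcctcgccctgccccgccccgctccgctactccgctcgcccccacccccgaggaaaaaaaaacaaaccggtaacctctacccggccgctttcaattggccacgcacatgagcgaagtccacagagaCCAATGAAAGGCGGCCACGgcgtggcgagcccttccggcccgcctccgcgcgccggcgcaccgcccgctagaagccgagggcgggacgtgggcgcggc

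The steps before and after folding moved the same way. Of 25 genes for entry into the ER, signal peptide cleavage and N-glycosylation, 24 rose and 0 fell (median 1.20; 23 rose with the mitochondrial covariate). Sec11c, a catalytic subunit of the signal peptidase, stood at 326, 346 and 413 CPM at 16.7 mM and 115, 122 and 132 CPM at 11.1 mM. Its groups were well apart, and it rose by 1.52 ± 0.07 (adjusted p = 1.32e-14). The oligosaccharyltransferase subunits Rpn2 (1.46 ± 0.09), Rpn1 (1.34 ± 0.09) and Ostc (1.02 ± 0.07) rose as well, each in 8 of 8 sets. All 28 COPI, COPII and ER-Golgi transport genes rose (median 0.78), 23 of them with the covariate. Mcfd2, a cargo receptor partner, rose by 1.59 ± 0.11 and Sec16a, which organises ER exit sites, by 0.88 ± 0.07. Sec23b, a COPII coat subunit, rose by 2.09 ± 0.18, or 1.17 with the covariate, and the cargo receptor Tmed10 by 1.2 ± 0.10, or 0.70.

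Amino acid supply and tRNA charging rose too, with a smaller median. Of 22 genes of the PERK and ATF4 branch 16 rose and 3 fell (median 0.47; 7 and 1 with the covariate). Those that rose included Psat1 (1.28 ± 0.09) and Phgdh (1.39 ± 0.14, or 0.66 with the covariate), enzymes of serine synthesis, Asns, the asparagine synthetase (1.15 ± 0.08), and the cystine transporter Slc7a11 (1.39 ± 0.11). The 3 that fell, named after their values were seen, were stress effectors: Ddit3, which encodes CHOP (-1.25), Trib3 (-0.47) and Sesn2 (-0.29). Aminoacyl-tRNA synthetases rose in 16 of 20 cases (9 with the covariate), led by Hars (1.36 ± 0.07) and Rars (1.14 ± 0.09), while Yars (-0.35) and Cars (-0.29), named after their values were seen, fell, 1 of them without set 1, 5 or 6. Proteasome subunits rose in 19 of 25 cases with a median of 0.28 (11 with the covariate), among them Psma5 (1.01 ± 0.10, or 0.67 with the covariate) and Psmd12 (0.73 ± 0.08, or 0.43); the 1 that fell, named after its value was seen, was Psmb3 (-0.36).

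Hormone genes and the genes that process their precursors went different ways. Of 19 genes for the insulin genes, prohormone processing and granins, 14 rose and 4 fell (median 0.89; 9 and 2 with the covariate). Vgf (ENSMUSG00000037428, chromosome 5, 137026392 to 137033351), a granin-like precursor needed for dense-core granules, had 25.8 to 75.4 CPM at 11.1 mM and 425 to 740 CPM at 16.7 mM, with medians of 47.9 and 606 CPM. The groups were far apart, and Vgf rose 12.8-fold (3.67 ± 0.20, adjusted p = 1.13e-13). Pam, which amidates peptides including IAPP, stood at 1366, 1710.3 and 2255 CPM at 16.7 mM and 210.0, 290.0 and 510.5 CPM at 11.1 mM and rose by 2.5 ± 0.15 without overlap. Scg3, a granin that sorts granule cargo, rose by 1.82 ± 0.11 and Ptprn, the granule protein IA-2, by 1.54 ± 0.10. Pcsk1, the convertase that starts proinsulin and proIAPP cleavage, stood at 1059 ± 178 against 237 ± 134 CPM (SD, n = 8) and rose by 2.36 ± 0.25, or 1.16 with the covariate; it is given for its promoter, after its value was seen.

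The insulin genes did not share in this. Ins1 stood at 38155, 49204 and 59826 CPM at 16.7 mM and 41339, 66908 and 79828 CPM at 11.1 mM, and Ins2 at 93462, 115630 and 135050 CPM at 16.7 mM and 113880, 144530 and 160890 CPM at 11.1 mM. The groups overlapped for both. Ins1 was lower at 16.7 mM in 7 of 8 sets (-0.38 ± 0.14, adjusted p = 0.0244) and Ins2 in 6 of 8 (-0.34 ± 0.14, adjusted p = 0.0381). Neither call held: Ins1 was at -0.17 with the covariate (adjusted p = 0.62), -0.32 to -0.36 without set 1, 2, 5 or 6 (adjusted p = 0.0507 to 0.0725), and did not pass without the replicate block. Ins2 was at -0.46 (adjusted p = 0.0926), -0.30 to -0.33 without set 1, 2, 4, 5 or 6 (adjusted p = 0.0585 to 0.110), and likewise failed without the block. Iapp, whose counts here may come in an unknown part from the human insert, stood at 9764, 11090.0 and 11583 CPM at 16.7 mM and 5647, 6678 and 7912 CPM at 11.1 mM with no overlap and rose by 0.71 ± 0.11 (adjusted p = 3.18e-06); with the covariate it was at 0.34 and did not pass (adjusted p = 0.0517). The other 2 members that fell, named after their values were seen, were Pcsk1n, which encodes the proSAAS inhibitor of that convertase (-0.90), and the granule zinc transporter Slc30a8 (-0.72), so that 2 of the list fell without set 1, 2, 5 or 6. A cyclic AMP response element, TGACGTCA, lay in 3 of 14 matched promoters of this list (21.4%: Pcsk1, Chgb and Scg2), against 478 of 27018 (1.77%) in the whole table, and all 3 rose. It is shown in capitals in Pcsk1, 70 bases before the start.
Pcsk1 (chr13:75089607-75089856, plus strand): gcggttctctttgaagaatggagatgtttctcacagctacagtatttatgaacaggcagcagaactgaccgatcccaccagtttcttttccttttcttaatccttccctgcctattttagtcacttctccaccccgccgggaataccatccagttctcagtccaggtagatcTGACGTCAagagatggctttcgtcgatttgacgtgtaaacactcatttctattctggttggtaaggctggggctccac

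**Figure D1:**
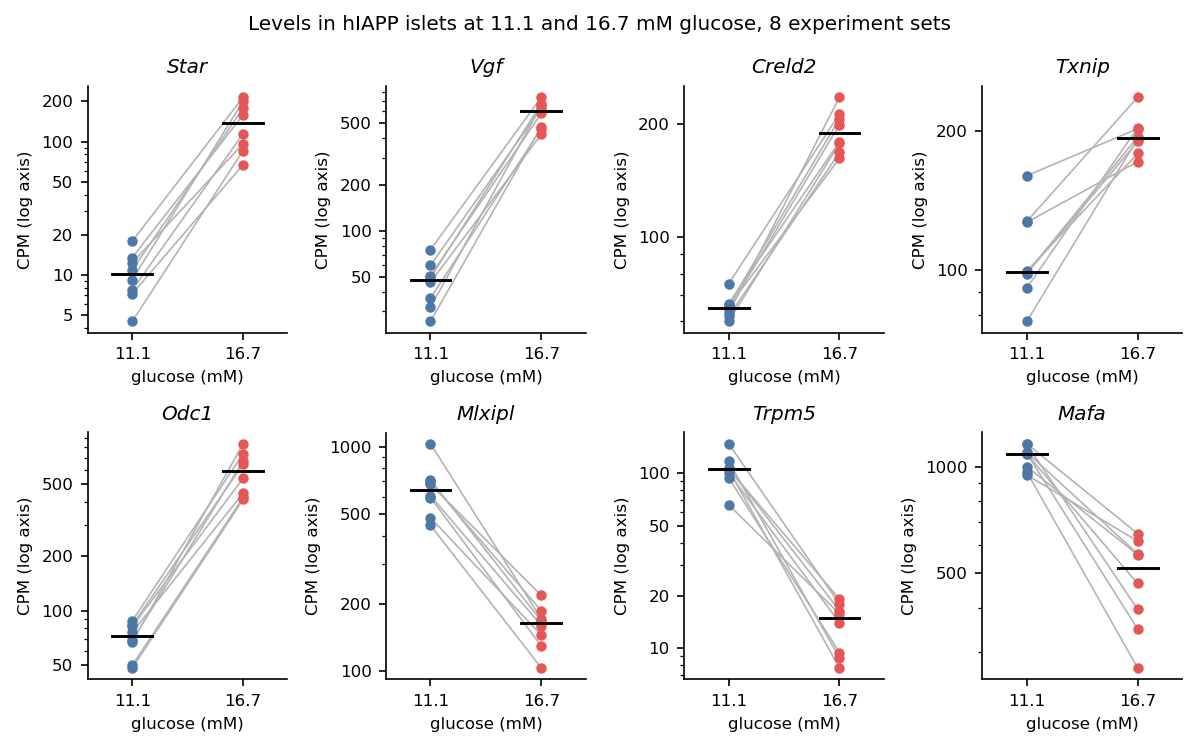
Levels of 8 genes in each of the 8 experiment sets of hIAPP islets at 11.1 and 16.7 mM glucose (CPM, log axis, 1 line per set). Star, Vgf, Creld2, Txnip and Odc1 lay higher at 16.7 mM and Mlxipl, Trpm5 and Mafa lower in every set, and for none of the 8 did the groups overlap.

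In the exocytosis machinery 11 of 20 genes rose and 3 fell (median 0.33; 4 and 4 with the covariate). The calcium sensor Syt4 (1.17 ± 0.11), the priming factor Unc13a (0.87 ± 0.08) and the granule GTPase Rab3d (1.52 ± 0.12, or 0.92 with the covariate) rose. Cplx2, a complexin that clamps fusion, fell by 0.95 ± 0.08 (adjusted p = 1.31e-10), from 435 to 665 CPM at 11.1 mM to 253 to 295 CPM at 16.7 mM. The other members that fell, named after their values were seen, were Stx1a (-0.45) and Rph3al (-0.27).

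Genes of mature beta cell identity were mostly lower. Of 18 beta cell transcription factors 11 fell and 5 rose (median -0.20; 7 and 1 with the covariate). Mafa, a transactivator of the insulin gene that marks mature beta cells, stood at 270.1, 516 and 648 CPM at 16.7 mM and 949, 1089.8 and 1164 CPM at 11.1 mM. The groups did not overlap, and it fell by 1.18 ± 0.12 (adjusted p = 6.37e-09). Nkx6-1, which maintains beta cell identity, fell by 0.72 ± 0.10 and the zinc finger factor Myt1 by 0.54 ± 0.07. St18, a relative of Myt1, rose by 1.38 ± 0.17, or 0.68 with the covariate. Others that rose, named after their values were seen, included Insm1 (1.07), Glis3 (0.76) and Hnf4a (0.30).

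Of 22 genes for glucose sensing, channels and incretin receptors, 11 fell and 5 rose (median -0.16; 7 and 1 with the covariate). Trpm5 (ENSMUSG00000009246, chromosome 7, 143069153 to 143094642), a calcium-activated cation channel, stood at 7.72, 14.9 and 19.1 CPM at 16.7 mM and 66.1, 106 and 148 CPM at 11.1 mM. It fell by 3.02 ± 0.17, an 8.1-fold lower level (adjusted p = 4.05e-13), without overlap. Gipr, the receptor of the incretin GIP, fell by 1.77 ± 0.16 (-0.96 with the covariate), and Ucn3, a peptide of mature beta cells that drives somatostatin release, by 0.99 ± 0.12, with groups that overlapped. Slc17a9, the vesicular nucleotide transporter that loads ATP into granules, rose by 1.92 ± 0.11. The others that rose, named after their values were seen, were Kcnk16 (0.26), Gpr119 (0.80), Adra2a (0.61) and Rapgef4 (0.90). Among 18 genes that beta cells normally keep silent, 10 fell and 2 rose (5 and 1 with the covariate): Aldh1a3, which marks dedifferentiated beta cells (1.9 ± 0.21, or 1.24 with the covariate), and Oat (0.68, or 0.48 with the covariate, adjusted p = 0.16), named after its value was seen.

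Genes of glucose use made up the next group. ChREBP, encoded by Mlxipl, binds carbohydrate response elements with its partner Mlx when glucose is metabolised. Of 19 ChREBP and glucose-induced genes 14 rose and 4 fell (median 0.78; 8 and 3 with the covariate). Txnip, an arrestin-family protein that restrains glucose uptake and thioredoxin, stood at 172, 193 and 236 CPM at 16.7 mM and 77.6, 99.2 and 160.0 CPM at 11.1 mM. Its groups did not overlap and it rose by 0.88 ± 0.13 (adjusted p = 1.62e-06), but with the covariate it was at 0.32 (adjusted p = 0.191). Its relative Arrdc4, chosen after its value was seen, rose by 1.25 ± 0.14 (0.72 with the covariate). Mlx (1.05 ± 0.09) and the malic enzyme Me1 (0.96 ± 0.10, or 0.54) rose.

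Mlxipl itself moved the other way, from 447, 643 and 1031 CPM at 11.1 mM to 104, 164 and 218 CPM at 16.7 mM, and fell by 2.03 ± 0.13 (adjusted p = 1.11e-12). Khk, the ketohexokinase of fructose metabolism, fell by 2.25 ± 0.15. The remaining members that fell were the liver-type pyruvate kinase Pklr (-0.38, named after its value was seen) and Klf10, a glucose-inducible repressor described with the largest falls. The carbohydrate response element, searched as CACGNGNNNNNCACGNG on both strands, lay in 1 of 14 matched promoters of the list and in 14 of 27018 in the whole table (0.0518%). That promoter was Txnip, printed to place the element (capitals) 68 bases before the start of a gene known for it.
Txnip (chr3:96557707-96557956, plus strand): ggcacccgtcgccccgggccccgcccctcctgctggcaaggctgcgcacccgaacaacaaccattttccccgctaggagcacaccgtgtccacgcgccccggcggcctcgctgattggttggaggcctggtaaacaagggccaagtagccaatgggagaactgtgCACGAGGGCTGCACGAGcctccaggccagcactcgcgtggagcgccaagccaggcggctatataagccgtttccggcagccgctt

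In glycolysis 12 of 23 genes rose and 4 fell (median 0.31; 11 and 2 with the covariate). Pgk1, the phosphoglycerate kinase, rose from 77.1, 119 and 179 CPM at 11.1 mM to 296, 362 and 453 CPM at 16.7 mM (1.66 ± 0.13, adjusted p = 4.73e-11). The phosphofructokinase Pfkp (1.47 ± 0.14), the glucose transporter Slc2a1 (1.55 ± 0.19) and Pgam1 (0.63 ± 0.08) rose. The 4 that fell, named after their values were seen, included the beta cell glucose transporter Slc2a2 (-1.34), Aldoc (-0.45) and Eno2 (-0.48). Hypoxia-responsive genes, which share members with glycolysis, gave 11 rises and 1 fall among 17 tested (median 0.89; 7 and 2 with the covariate); the 1 was Ankrd37 (-0.65), named after its value was seen.

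Nuclear genes of mitochondrial metabolism rose in the majority. In the TCA cycle, anaplerosis and shuttles 19 of 27 rose and 4 fell (median 0.33; 6 and 2 with the covariate), among them the fumarase Fh1 (1.5 ± 0.12) and the malate dehydrogenase Mdh1 (1.32 ± 0.11, or 0.74). The 4 that fell, named after their values were seen, were Idh3b (-0.26), Idh2 (-0.61), the pyruvate carboxylase Pcx (-0.28) and Slc25a10 (-0.34). Nuclear subunits of the respiratory chain and ATP synthase gave 17 rises and 3 falls among 28 tested (median 0.31; 7 and 0 with the covariate): Ndufa1 of complex I rose by 1.24 ± 0.11 (0.69 with the covariate) and Atp5b of the ATP synthase by 0.85 ± 0.09 (0.41). Ndufb5 (-0.26), Ndufs3 (-0.27) and Cox4i1 (-0.32), named after their values were seen, fell; without set 1, 2, 5 or 6, 1 fell.

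Sterol synthesis rose, and so did Star. Cholesterol is made from acetyl-CoA through a chain of enzymes whose genes the factor SREBP2 controls as a block. Of 25 cholesterol synthesis and SREBP2 target genes 21 rose and 1 fell (median 0.94; 14 and 0 with the covariate), the 1 being Tm7sf2 (-0.32, named after its value was seen); without set 5, 0 fell, and without set 3, 2. Sqle, the squalene epoxidase, stood at 190.4, 224 and 300.2 CPM at 16.7 mM and 48.5, 70.7 and 121 CPM at 11.1 mM with no overlap and rose by 1.71 ± 0.12 (adjusted p = 1.55e-11), or by 1.13 with the covariate. Cyp51 (1.3 ± 0.09), Msmo1 (1.32 ± 0.11) and Ebp (0.94 ± 0.07), enzymes of the later steps, also rose. The sterol regulatory element, searched as TCACNCCAC on both strands, was present in 1 of 17 matched promoters (5.88%), against 331 of 27018 (1.23%). The 1 was Hmgcs1, the HMG-CoA synthase, which rose by 0.91 ± 0.12 with overlapping groups and is given here for this element, after its value was seen. Its promoter is printed with the element in capitals, 128 bases before the start.
Hmgcs1 (chr13:119690101-119690350, plus strand): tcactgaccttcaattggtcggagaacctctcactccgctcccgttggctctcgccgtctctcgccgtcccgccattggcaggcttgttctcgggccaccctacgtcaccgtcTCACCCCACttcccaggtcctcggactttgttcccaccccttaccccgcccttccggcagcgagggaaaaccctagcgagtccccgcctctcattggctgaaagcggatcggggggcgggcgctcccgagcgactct

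Fatty acid synthesis and desaturation gave 11 rises and 3 falls among 20 tested (median 0.28; 3 and 0 with the covariate). Acly, which makes cytosolic acetyl-CoA, rose by 0.71 ± 0.09 and the desaturase Scd2 by 1.58 ± 0.21; with the covariate they were at 0.31 (adjusted p = 0.0595) and 0.72 (adjusted p = 0.0663). Acacb (-1.03), Agpat2 (-0.75) and Dgat1 (-0.50), named after their values were seen, fell.

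Star, the steroidogenic acute regulatory protein named in the title of the study, brings cholesterol into mitochondria for steroid synthesis. Its levels were 67, 137 and 215 CPM at 16.7 mM and 4.46, 10.04 and 17.9 CPM at 11.1 mM; the lowest library at 16.7 mM was above the highest at 11.1 mM, and it was among the 15 largest rises. Its change was 3.67 with the mitochondrial covariate and 3.38 in libraries under 10%, against 3.73 in the full comparison. The list around it did not share its size: of 19 genes for steroid synthesis and sterol transport 4 rose and 6 fell (median -0.03; 2 and 2 with the covariate). Cyp11a1, Hsd3b1 and Nr5a1, also listed, had too few counts to be tested. Besides Star the 3 that rose, named after their values were seen, were the electron carrier ferredoxin Fdx1 (0.33), the steroid hydroxylase Cyp17a1 (1.83) and the cholesterol esterifying Soat1 (0.36). Apoe, a lipid carrier that macrophages also make, fell by 1.81 ± 0.16 (adjusted p = 8.96e-10). Fdxr, the reductase that supplies Fdx1 with electrons, fell by 1.28 ± 0.18, and was at -0.32 with the covariate (adjusted p = 0.217).

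**Figure D2:**
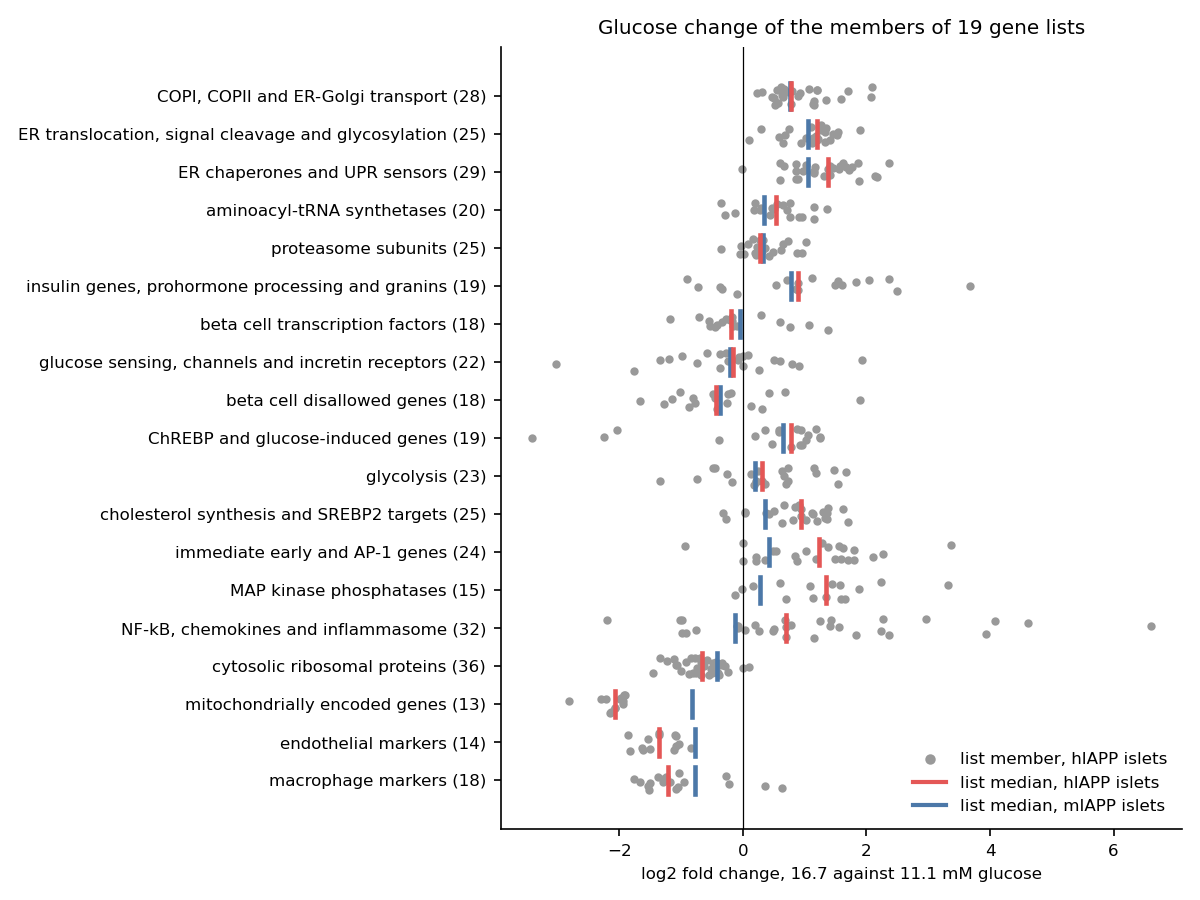
Log2 change between 16.7 and 11.1 mM glucose in hIAPP islets of each tested member of 19 gene lists (1 grey point per gene, number tested in brackets), with the median of the list in hIAPP islets as a red bar and in mIAPP islets as a blue bar. Members of the ER chaperone, translocation and ER-Golgi lists lie above 0 but for Derl2, and 34 of 36 ribosomal protein genes and all 13 mitochondrially encoded genes fell.

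Immediate early genes and MAP kinase phosphatases formed a further group. Calcium entry and cyclic AMP induce immediate early genes within minutes, and the dual-specificity phosphatases (Dusp) then limit MAP kinase signalling. Of 24 immediate early and AP-1 genes 19 rose and 1, Egr3 (-0.94, named after its value was seen), fell (median 1.23; 10 and 0 with the covariate), and 0 fell without set 2. The nuclear receptor Nr4a2 stood at 51.4, 77.7 and 104 CPM at 16.7 mM and 5.8, 7.15 and 9.05 CPM at 11.1 mM. It rose 10.3-fold (3.36 ± 0.14, adjusted p = 1.41e-15), and the groups were well apart. Crem, a cyclic AMP-responsive factor, rose by 2.11 ± 0.10, the small Maf factor Maff by 1.8 ± 0.12 and Nr4a1 by 2.27 ± 0.19. MAP kinase phosphatases rose in 12 of 15 cases and 0 fell (median 1.35; 10 with the covariate): Dusp4 by 3.32 ± 0.26, Dusp10 by 1.59 ± 0.10, Dusp5 by 1.58 ± 0.10 and Dusp8 by 1.35 ± 0.11. The cyclic AMP response element lay in 2 of 18 matched immediate early promoters (Btg2 and Maff) and 2 of 13 phosphatase promoters (Dusp1 and Dusp8).

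Polyamines are small cations made from ornithine that growing and secreting cells need. Odc1 (ENSMUSG00000011179, chromosome 12, 17544794 to 17551505), the ornithine decarboxylase that starts their synthesis, stood at 413, 593 and 838 CPM at 16.7 mM and 48.4, 72.4 and 88.1 CPM at 11.1 mM. It rose 8.35-fold without overlap (3.06 ± 0.14, adjusted p = 3.76e-15). Sat1, which acetylates polyamines for breakdown and export, stood at 153, 233 and 406 CPM at 16.7 mM and 49.6, 55.6 and 68.3 CPM at 11.1 mM and rose by 2.13 ± 0.17. The spermidine synthase Srm (1.06 ± 0.10) and Azin1, which protects Odc1 from its inhibitor (1.57 ± 0.18), rose, as did Amd1 (0.34, named after its value was seen). Of the 13 genes tested these 5 rose and 3 fell (median 0.10; 4 and 1 with the covariate), the latter Sms (-0.38), Paox (-0.39) and Azin2 (-0.95), named after their values were seen. Clock genes split 8 to 9 (3 and 8 with the covariate). The output factors Dbp (-2.19 ± 0.14) and Tef (-1.24 ± 0.10) fell, and Npas2, a partner of Bmal1, rose by 2.21 ± 0.20 (1.45 with the covariate).

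Inflammatory genes gave some of the largest rises from low levels. NF-kB is a transcription factor held in the cytoplasm until cytokines or danger signals free it, and chemokines are among its targets. Of 32 genes of NF-kB, chemokines and the inflammasome 19 rose and 6 fell (median 0.70; 11 and 4 with the covariate). Cxcl1 (ENSMUSG00000029380, chromosome 5, 90891241 to 90893115), a chemokine for neutrophils, stood at 3.69, 6.98 and 13.8 CPM at 16.7 mM and 0, 0.037 and 0.252 CPM at 11.1 mM. It had 16 counts in the 8 libraries at 11.1 mM together, below 3 per library, so no fold is given; every library at 16.7 mM lay above every library at 11.1 mM (adjusted p = 7.44e-10). Steap4, a metalloreductase induced by cytokines, stood at 1.81, 7.8 and 13.3 CPM at 16.7 mM and 0.132, 0.451 and 0.82 CPM at 11.1 mM, apart in every set, and rose by 3.93 ± 0.34. Birc3, an inhibitor of apoptosis induced by NF-kB, rose by 1.41 ± 0.13 (0.86 with the covariate) and the subunit gene Nfkb2 by 1.15 ± 0.13 (0.62). S100a9, an alarmin of myeloid cells, had 6 counts in all at 11.1 mM and 0.855, 2.84 and 22.7 CPM at 16.7 mM (adjusted p = 1.2e-08), the highest in set 6. Other neutrophil markers went the other way, Csf3r at -1.99 (-1.33 with the covariate) and Cxcr2 at -1.6 (-0.53, adjusted p = 0.207); Elane was at 0 in all 8 libraries of each group.

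A kB site, searched on both strands as GGGA, any base and then TTTCC, lay in 5 of 25 matched promoters of this list (Cxcl1, Cxcl2, Il6, Nfkb2 and Nfkbia), against 112 of 27018 (0.415%), and 3 of the 5 rose. The Cxcl1 promoter is shown because its gene had the largest fitted change of the list, with the site in capitals 61 bases before the start.
Cxcl1 (chr5:90890995-90891244, plus strand): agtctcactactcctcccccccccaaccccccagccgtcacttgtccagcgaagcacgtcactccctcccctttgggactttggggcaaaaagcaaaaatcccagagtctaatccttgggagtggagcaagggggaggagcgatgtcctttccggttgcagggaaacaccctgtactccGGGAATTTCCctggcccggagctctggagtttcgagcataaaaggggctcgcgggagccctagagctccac

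Epithelial injury genes rose from similarly low levels. Sprr1a, a small proline-rich protein of stressed epithelia, stood at 13.7, 39.7 and 122 CPM at 16.7 mM and 0.36, 0.873 and 3.15 CPM at 11.1 mM and rose by 5.38 ± 0.54 (adjusted p = 2.19e-08), and the set-to-set spread at 16.7 mM was wide (57.4 ± 46.3 CPM, SD, n = 8). Lama3, an alpha chain of the laminin under epithelia, stood at 12.5, 19.99 and 65.6 CPM at 16.7 mM and 0.263, 0.57 and 2.35 CPM at 11.1 mM and rose by 5.27 ± 0.45, while its partner Lamb3 was at -1.04. In the list of epithelial laminin and injury genes 7 of 17 genes rose and 5 fell (median 0.30; 5 and 0 with the covariate). The 5, named after their values were seen, were Lamb3, Itgb4 (-0.89), Itgb6 (-1.08), Krt17 (-1.79) and Clcf1 (-1.54); 2 fell without set 1, and 3 without set 2. Lif, a cytokine of the interleukin-6 family, rose by 1.84 ± 0.30 with overlapping groups.

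In the interferon response 11 of 27 genes fell and 5 rose (median -0.17), beside 33.3% lower and 32.2% higher over all genes. With the covariate 6 fell and 0 rose. The same list gave 11 falls and 4 rises in mIAPP islets. Irf7, the amplifying transcription factor of this response, fell by 1.13 ± 0.16, with overlap between the groups. H2-D1, an antigen-presenting class I gene, rose by 0.85 ± 0.13 but was at 0.21 with the covariate (adjusted p = 0.339); the others that rose, named after their values were seen, were Ifih1 (0.61), Usp18 (0.29), Gbp2 (0.86) and H2-K1 (0.40).

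Stress and quality-control lists moved moderately. NRF2 and antioxidant genes gave 15 rises and 3 falls among 27 tested (median 0.32; 7 and 1 with the covariate), with Srxn1, the sulfiredoxin (1.44 ± 0.07), and thioredoxin Txn1 (1.07 ± 0.09, or 0.68) among the rises and Nqo1 (-1.01), Gpx4 (-0.60) and Cat (-0.49), named after their values were seen, the falls. Of 20 heat shock genes 9 rose and 4 fell (4 and 0 with the covariate). Bag3, a chaperone of selective autophagy, rose by 1.02 ± 0.09, and the falls, named after their values were seen, were Hsf1 (-0.42), Lonp1 (-0.31), Clpp (-0.75) and Cryab (-1.28). Lysosome and autophagy genes gave 12 rises and 4 falls among 23 tested (4 and 3 with the covariate), led by Wipi1, which builds autophagosomes (2.35 ± 0.13); Tfeb (-0.83), Ctsd (-0.25), Map1lc3a (-1.0) and Gabarapl1 (-0.39), named likewise, fell. In the p53 and BCL2 list 9 of 22 fell and 6 rose (5 and 3 with the covariate): pro-apoptotic Bax fell by 1.0 ± 0.13 (-0.52 with the covariate) and anti-apoptotic Bcl2l1 rose by 0.61 ± 0.09, or 0.35 with the covariate, which did not pass (adjusted p = 0.0841). Cell cycle genes gave 13 rises and 4 falls among 26 tested (1 and 2 with the covariate). The 4 were Cdkn1c (-2.17) and, named after their values were seen, Aurka (-0.31), Mcm7 (-0.28) and Cdk4 (-0.58).

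Genes that could remove amyloid or bind it were looked at because of the human IAPP insert. Of 19 genes for amyloid clearance and the heparan sulfate matrix, 7 rose and 4 fell (median 0.18; 3 and 2 with the covariate). Ide, the insulin-degrading enzyme that also cleaves IAPP, was at 0.70 and passed. The following were named after their values were seen. Mme, the peptidase neprilysin, was at -0.49 and did not pass. The matrix heparan sulfate core Hspg2 fell (-1.04), as did Mmp2 (-0.80), Timp1 (-0.72) and Timp3 (-0.88).

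The genes with the largest changes came from varied functions. Ranked among genes at a mean of 5 CPM or more that moved the same way in all 8 sets, the 15 largest rises ran from 3.37 to 5.38, and 14 of them stayed called with the mitochondrial covariate and 14 in libraries under 10%. Anxa10, an annexin of gastric epithelium, stood at 5.81, 14 and 36 CPM at 16.7 mM and 0.119, 0.461 and 0.985 CPM at 11.1 mM and rose by 5.05 ± 0.31. Mfsd2a, a transporter of lysophosphatidylcholine (4.32 ± 0.33), Tacr3, the neurokinin B receptor (3.89 ± 0.30), Serpina7, a thyroxine-binding globulin (3.7 ± 0.25), and the milk protein gene Csn3 (3.73 ± 0.24) followed. At higher levels, Pappa2, a protease that frees insulin-like growth factors, stood at 365, 417 and 582 CPM at 16.7 mM and 28.9, 41.6 and 64.2 CPM at 11.1 mM and rose by 3.42 ± 0.24. Ttyh1, a membrane channel-family protein, stood at 275, 361 and 512 CPM at 16.7 mM and 21.2, 33.9 and 40.8 CPM at 11.1 mM and rose by 3.51 ± 0.15, and the groups were far apart for both. Aff2 (3.62 ± 0.32), Slc4a11 (3.37 ± 0.44) and Aass, of lysine breakdown (3.37 ± 0.30, or 2.02 with the covariate), also belonged here, with Star, Vgf, Lama3 and Sprr1a above. The 15th, a Myl12b gene model that overlaps Myl12a and another Myl12b model, was at 3.9 and turned to -1.71 with the covariate (adjusted p = 0.296); how reads were split between these models is not given in the sources used here.

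Genes with the smallest p at 20 CPM or more had smaller changes and stayed called in both fits, 10 of 10 in each direction. Rises included Tent5a, a poly(A) polymerase of secretory transcripts (302 to 392 against 34.3 to 60.9 CPM, 2.91 ± 0.15), and Nucb2, the precursor of nesfatin (2.05 ± 0.10). Inpp5f, a phosphoinositide phosphatase (2.15 ± 0.10), Clptm1l, an ER membrane protein (1.64 ± 0.07), and the pyrophosphatase Ppa1 (1.64 ± 0.07) were the others not yet given. Falls included Insrr, the insulin receptor-related receptor (-1.97 ± 0.13), Coq8a, of coenzyme Q synthesis (-1.48 ± 0.08), and Akr1c19, an aldo-keto reductase (-1.55 ± 0.10). Carmil3 (-2.12 ± 0.15), the granule GTPase Rab37 (-1.14 ± 0.08), Cryl1 (-1.65 ± 0.12) and the peptidoglycan sensor Nod1 (-1.06 ± 0.08) fell as well.

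The 15 largest falls ran from -2.60 to -4.53. With the mitochondrial share as a covariate 5 of the 15 stayed called, and in libraries under 10%, 7. The median within-set difference of the 15 genes was -0.98 in sets 3 and 4, whose libraries at 11.1 mM had 5.23 and 6.49% mitochondrial counts, and -3.02 in the other 6 sets. Models that overlap another gene were also common, 8 of 15 against 3 of the 15 largest rises. Among the 10 falls with the smallest p outside these 15, 6 overlapped another gene, against 1 of the 10 such rises. All 10 of these falls kept their call. The share over all genes is not given here, and whether counting used the strand is not given in the sources used here. Of the 15 largest falls, Trpm5, Cib3, T2, Mesp1 and Aif1 were the 5 that stayed called with the covariate. Cib3, a calcium and integrin-binding protein, stood at 3.35, 6.14 and 14 CPM at 16.7 mM and 31.7, 87.5 and 101 CPM at 11.1 mM and fell by 3.42 ± 0.18 (adjusted p = 8.03e-14; -2.6 with the covariate). T2 fell by 3.54 ± 0.20 (-2.76), the mesoderm factor Mesp1 by 2.65 ± 0.25 (-1.42), and the macrophage gene Aif1 by 2.6 ± 0.22 (-1.51).

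The others lost the call. Klf10 ran from 21.5 to 241 CPM at 16.7 mM and from 57.5 to 2065 CPM at 11.1 mM, with overlap, and was at -3.42 ± 0.82 (adjusted p = 0.00103), but at 0.98 with the covariate (adjusted p = 0.329). The signs of Tbata (-3.41 to 0.59), the replication factor Cdc45 (-3.08 to 0.05) and the melanocortin receptor Mc1r (-2.66 to 0.71) turned in the same way. Rpgrip1 (-3.33 to -1.54), Igflr1 (-2.78 to -0.89), Sap25 (-2.75 to -0.85), Ulk4 (-2.68 to -0.51) and the checkpoint kinase Chek2 (-2.61 to -0.18) kept their sign without passing. Zfp831 (-4.53 to -0.48) was lower in 8 of 8 sets. It had 103 CPM at 11.1 mM and 3.04 at 16.7 mM in set 7, beside group medians of 0.288 and 0 CPM. Outside set 7 its highest library had 1.34 CPM at 11.1 mM and 0.103 CPM at 16.7 mM. Without set 7 Zfp831 stayed called (edgeR, adjusted p = 0.00999), but its levels at 16.7 mM were too near 0 for a fold.

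**Figure D3:**
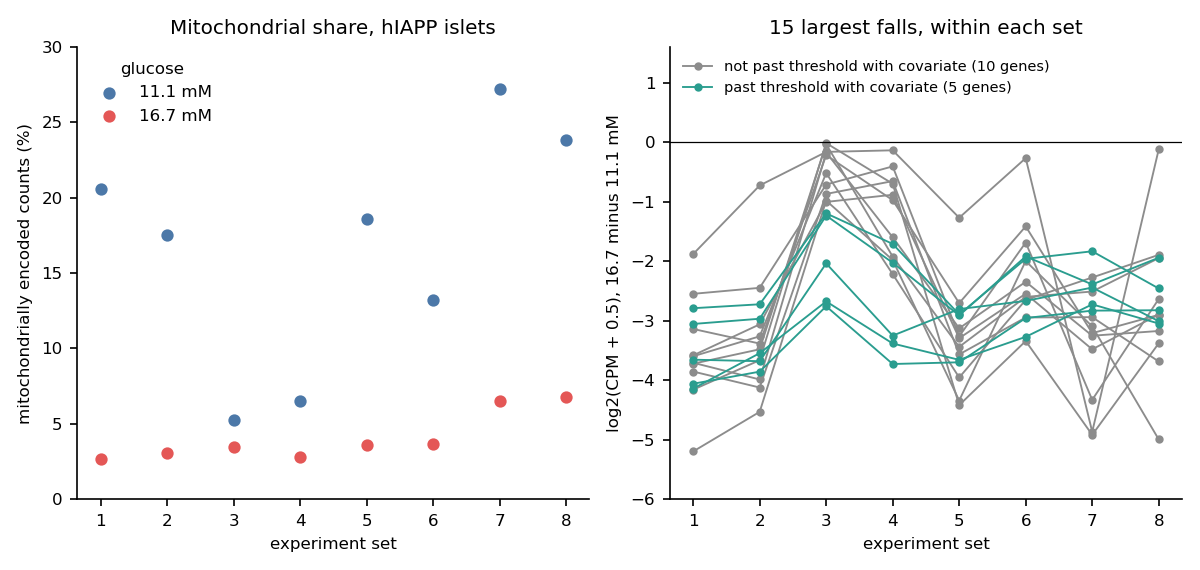
Mitochondrial share of counts (percent) by set at both glucose levels, and the within-set difference of log2(CPM + 0.5) of the 15 largest falls in each set (1 line per gene, green for the 5 past the threshold with the mitochondrial covariate). The share was lower at 16.7 mM in all 8 sets, and the differences were smaller in sets 3 and 4 (median -0.98) than in the other sets (median -3.02).

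Ribosomal protein genes and mitochondrially encoded genes fell as groups. Of 36 cytosolic ribosomal protein genes 34 fell and 0 rose (median -0.66), among them Rpl13a (-1.45 ± 0.21), Rps15 (-1.34 ± 0.21), Rps24 (-1.11 ± 0.16) and Rpl8 (-1.0 ± 0.15). With the covariate none of the 36 passed, and in libraries under 10% 2 did. All 13 mitochondrially encoded genes fell (median -2.07), for example mt-Co3 (-2.07 ± 0.34) and mt-Cytb (-1.99 ± 0.33), which encode subunits of complexes IV and III. The share used as the covariate is the sum of these same genes, so that fit says nothing about them; in libraries under 10%, 4 of 13 fell (median -1.09).

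Markers of other cell types also moved with glucose, and their part in the results above was not tested. Endothelial markers fell in 14 of 14 cases (median -1.36; 9 with the covariate), and their summed level was 32.2 to 95.5 CPM at 16.7 mM and 87.6 to 218.7 at 11.1 mM. Esam (-1.1 ± 0.13) and Emcn (-1.83 ± 0.24) were among them, and Pecam1 (-1.5 ± 0.22) was at -0.70 with the covariate (adjusted p = 0.113). Macrophage markers gave 14 falls and 0 rises among 18 tested (median -1.21; 14 with the covariate; 1 rose without set 1 or 4), from a sum of 369.3 to 702.7 to one of 158.9 to 356.4 CPM without overlap. Csf1r, the receptor macrophages need to survive, fell by 1.53 ± 0.14 and the complement gene C1qb by 1.76 ± 0.16. Of 6 lymphocyte markers tested 5 fell (2 with the covariate): the B cell receptor component Cd79a had 4.18, 5.07 and 6.83 CPM at 11.1 mM and 0.532, 0.873 and 1.08 at 16.7 mM (-2.72 ± 0.19), and the others were Cd4 (-1.62), Ms4a1 (-2.65), Ighm (-2.44) and Cd3d (-1.22, named after its value was seen). Stellate and fibroblast markers fell in 12 of 16 cases (median -0.66; 9 with the covariate), with Sparc at -1.16 ± 0.17 and Tagln at -0.95 ± 0.15. The sums of the endothelial, macrophage and lymphocyte lists were lower at 16.7 mM in 8 of 8 sets (exact paired permutation test, adjusted p = 0.0166 each).

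Ductal markers gave 6 rises and 2 falls among 12 tested (5 and 1 with the covariate), and their sum, 1255 to 2096 against 555.8 to 1015 CPM, did not overlap and was higher in 8 of 8 sets. The keratins Krt8 (1.06 ± 0.11) and Krt7 (0.79 ± 0.11) rose, as did Spp1, or osteopontin (3.01 ± 0.43, or 1.99 with the covariate); the 2 that fell, of which 1 fell without set 1, 2 or 7, included Sox9 (-0.81), a factor that defines the duct, named after its value was seen. Acinar markers rose in 2 of 16 cases, including Bhlha15 (1.44 ± 0.12, or 0.88 with the covariate), and fell in 1 (Cela1, -0.56; -0.63 with the covariate, adjusted p = 0.233). Their sum was 110 to 258 CPM at 16.7 mM and 50.6 to 384 CPM at 11.1 mM. Of 8 glial markers 2 fell, including Sox10 (-0.85; -1.31 with the covariate, adjusted p = 0.117), and none with the covariate; their sum was 22.2 to 37.1 CPM at 16.7 mM and 28.9 to 52.1 CPM at 11.1 mM, lower in 7 of 8 sets (exact paired permutation test, adjusted p = 0.0266). Without set 2 no acinar marker fell, and without set 2, 3, 5 or 7, 1 glial marker did; without set 1, 1 glial marker rose.

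The other endocrine cells gave no single direction. Of 9 alpha cell markers 2 rose, the vitamin D-binding protein gene Gc (2.81 ± 0.18) and Ttr (1.35 ± 0.17), and 2 fell, Slc7a2 (-1.08 ± 0.13) and Fap (-0.83; -0.30 with the covariate, adjusted p = 0.567); with the covariate 2 rose and 1 fell, and without set 8, 5 rose. The alpha sum was higher at 16.7 mM in 8 of 8 sets, at 2276 to 17900 against 2126 to 12610 CPM, with overlap (exact paired permutation test, p = 0.007812, adjusted p = 0.0166). In set 8 it was 2276 CPM at 16.7 mM and 2126 CPM at 11.1 mM, where mitochondrial counts took 6.76 and 23.8% of the library. The direction in that set, and with it this p, may therefore depend on counting mitochondrial genes in the total, which was not tested. The glucagon gene Gcg was not among the alpha markers that passed. Of 8 delta and PP markers 3 rose and 3 fell, and with the covariate none passed. Their sum was lower at 16.7 mM in 7 of 8 sets, at 2437 to 5317 against 2619 to 6746 CPM (exact paired permutation test, p = 0.03125, adjusted p = 0.0483). Ppy was lower in 8 of 8 sets (-1.09 ± 0.31, adjusted p = 0.00363) with overlap, at -1.41 with the covariate (adjusted p = 0.0772) and -0.76 in libraries under 10% (adjusted p = 0.0683). Others included Sst (0.48) and Ghsr (1.59), which rose, and Pyy (-0.78) and Npy1r (-1.27), which fell; Sst and Npy1r were named after their values were seen.

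Whether these changes differ from those of mIAPP islets was asked with the interaction, the glucose change in hIAPP minus that in mIAPP islets, since a gene called in one genotype and not in the other is not thereby shown to differ. In mIAPP islets 4083 genes (24.9%) rose and 3722 (22.7%) fell; 3620 rose in both genotypes, which is 68.4% of the hIAPP and 88.7% of the mIAPP rises, and 3209 fell in both (58.6% and 86.2%). The interaction passed for 513 genes (3.12%), 357 positive (2.17%) and 156 negative (0.950%). Of these, 338 rose and 126 fell further in hIAPP islets. The count rests on several sets: it was 239, 310, 280 and 337 without set 1, 2, 6 or 8. With libraries under 10% alone, which leaves 2 hIAPP libraries at 11.1 mM, it was 7. With the mitochondrial covariate the count was 260, and which genes named below kept an interaction call there is not given. The 13 mitochondrially encoded genes had medians of -2.07 in hIAPP islets (13 fell) and -0.82 in mIAPP islets (3 fell), and 0 passed the interaction. The part of the share in these differences was not tested.

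**Figure D4:**
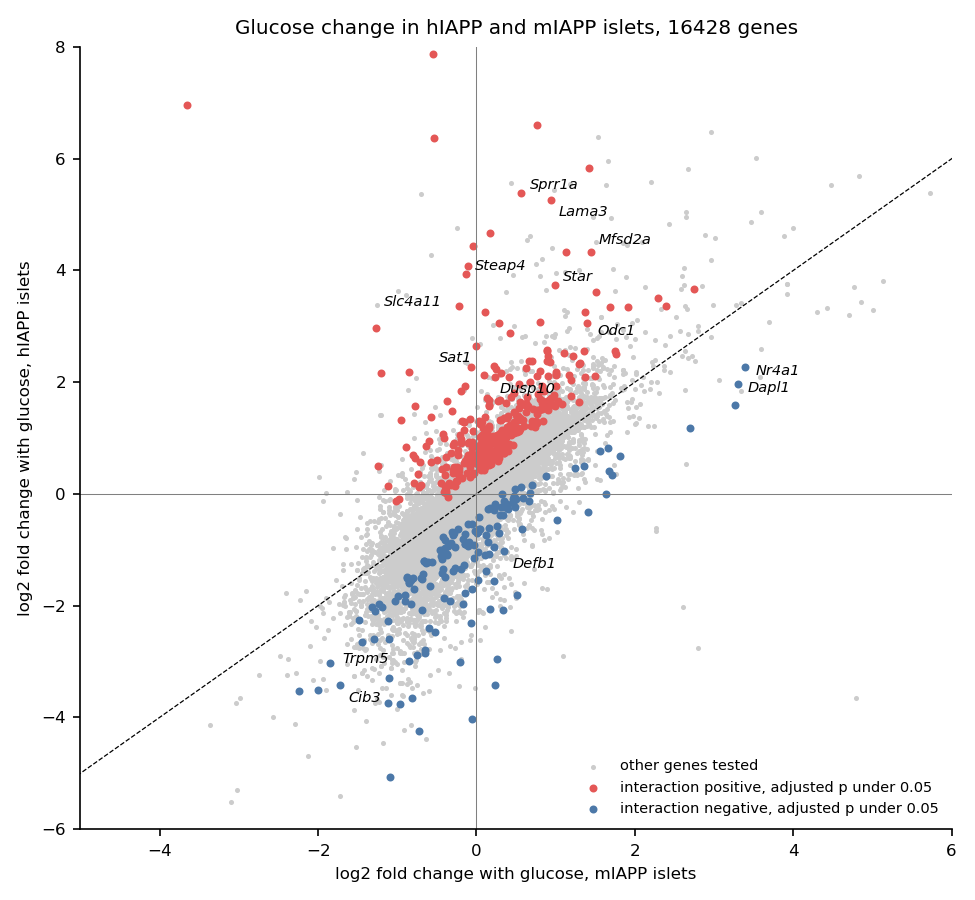
Log2 glucose change in mIAPP islets (x axis) against that in hIAPP islets (y axis), 1 point per gene tested, with the line of equal change and genes past the interaction threshold in red (positive) or blue (negative); 17 genes lie outside the plotted range, 1 of them past the threshold. Star, Sat1 and Steap4 lie above the line, and Trpm5 and Cib3 below it.

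The secretory lists showed no difference past the threshold. Among the ER chaperone, translocation, ER-Golgi, tRNA synthetase and proteasome lists 0 genes passed the interaction; the medians were 1.38 in hIAPP and 1.06 in mIAPP islets for the chaperones and 1.20 and 1.06 for translocation. Creld2 rose by 1.56 ± 0.07 and 1.54 ± 0.07, a difference of 0.01 ± 0.10. For Hspa5 the difference was 0.11 ± 0.16 and for Txnip -0.27 ± 0.18 (adjusted p = 0.426). Granule genes differed in part: 4 of 19 were positive, including Vgf (mIAPP 2.75 ± 0.19, difference 0.92 ± 0.25), Pam (0.74 ± 0.21) and Ptprn (0.67 ± 0.14).

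Differences past the threshold also lay in signalling, inflammatory, sterol and polyamine genes. Sat1 was at 0.10 ± 0.17 in mIAPP islets, a difference of 2.03 ± 0.24 (adjusted p = 1.3e-05), and Odc1 at 1.4 ± 0.13, a difference of 1.66 ± 0.18 (adjusted p = 5.72e-06). Of 15 MAP kinase phosphatases 6 were positive and 0 negative. Dusp10 was at 0.16 ± 0.10 and Dusp8 at -0.08 ± 0.11 in mIAPP islets, with differences of 1.43 ± 0.14 and 1.42 ± 0.16. Immediate early genes were positive in 9 of 24 cases and negative in 2, with Maff at 1.33 ± 0.17, Nr4a2 at 0.97 ± 0.18 and, in the other direction, Nr4a1 at -1.11 ± 0.26, which rose further in mIAPP islets (3.39 ± 0.20).

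NF-kB genes were positive in 7 of 32 cases and negative in 0; in mIAPP islets 4 rose and 9 fell, against 19 and 6. Steap4 was at -0.13 ± 0.35 in mIAPP islets, a difference of 4.06 ± 0.48, and Nfkb2 at -0.16 ± 0.13, a difference of 1.31 ± 0.18 (adjusted p = 7.76e-05). Lama3 (4.33 ± 0.65), Sprr1a (4.81 ± 0.81) and Lif (2.04 ± 0.44) differed likewise. Cholesterol genes were positive in 7 of 25 cases and negative in 0, among them Msmo1 (0.77 ± 0.15) and Sqle (0.76 ± 0.17). Single genes that differed included Igf1r. This gene, which encodes the receptor of insulin-like growth factor, was at 1.73 ± 0.12 and 0.44 ± 0.11, a difference of 1.3 ± 0.16; the ubiquitin ligase Herc4 differed by 1.38 ± 0.17. Bag3 (0.85 ± 0.12) was the 1 of 20 heat shock genes and Bcl2l1 (0.72 ± 0.13) the 1 of 22 p53 and BCL2 genes past the threshold.

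Differences below 0 covered genes that fell further in hIAPP islets or rose less. Trpm5 was at -1.85 ± 0.17 in mIAPP islets (difference -1.17 ± 0.23) and Cib3 at -1.72 ± 0.17 (difference -1.7 ± 0.24). Nkx6-1 was at -0.15 ± 0.10, a change that did not pass, and differed by -0.57 ± 0.14 (adjusted p = 0.0257); Mlxipl differed by -0.71 ± 0.17 and Khk by -0.77 ± 0.21. Cxxc4, an inhibitor of Wnt signalling, was at -0.69 ± 0.07 and 0.02 ± 0.07, a difference of -0.71 ± 0.10. The defensin gene Defb1 fell in hIAPP islets (-1.02 ± 0.13) and rose in mIAPP islets (0.35 ± 0.12), a difference of -1.37 ± 0.18 (adjusted p = 3.64e-05). Dapl1 (1.97 ± 0.18 against 3.3 ± 0.19) and Asb11 (0.69 ± 0.15 against 1.81 ± 0.15) rose less in hIAPP islets; Asb11 did not pass there in libraries under 10% (adjusted p = 0.177).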

How the data were processed

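RNA from cultured islets was sequenced after poly(A) selection, and per the submitters' processing notes the authors demultiplexed with bcl2fastq 1.8.4 and quantified with kallisto 0.45.0, with GRCm38 as the build. The deposited values are expected counts per Ensembl gene, already whole numbers, for 36595 genes; whether they used the strand or held the human IAPP sequence is not given in the sources used here. GENCODE M21 held 36047 of the identifiers, and 1399 shared a symbol with another. All 32 libraries (8 in each of 4 groups, 18.78 to 43.7 M counts in the hIAPP libraries) entered 1 edgeR 4.0.16 fit under R 4.3.3: TMM scaling, filterByExpr by group (16428 genes), glmQLFit with robust estimation and glmQLFTest, with the set as a block (21 residual degrees of freedom). Spread is thus shared with the mIAPP libraries. SE is the absolute log2 change divided by the square root of F.

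The labels put the 4 groups in each of 8 numbered sets, which pairs the libraries; the deviations of both hIAPP libraries of a set from their group means had a mean r over genes of 0.233 (-0.08 to 0.458), against -0.035 between sets, and 6 of 8 matched their own set best. No 2 libraries were identical or agreed within sampling noise (smallest chi-square per degree of freedom 11.3).

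Genes were named by a rule, in order. Star, Iapp, Ins1, Ins2 and Txnip were always named. Next came up to 15 per direction with the largest change at an adjusted p under 0.05. These had a mean of 5 CPM or more and one direction in all 8 sets on log2(CPM + 0.5). Of genes not yet named, up to 10 per direction with the smallest p at 20 CPM or more followed. Up to 4 per list with the smallest p, and up to 10 per direction of the interaction, were added. Genes outside the rule are said to be so. Several genes are counted in their lists but not reported here by name. The comparison, the 34 pathway lists and the 11 marker lists were chosen with earlier results of these data known. For a group below 3 counts per library on average, levels stand in place of a fold; this floor covers counting error only. Library measures were tested with exact paired permutation tests. Alternatives were no block, only the 16 hIAPP libraries, DESeq2 size factors, DESeq2 1.42.0, limma voom (limma 3.58.1), other low-count filters, a mitochondrial covariate, mitochondrially encoded genes left out, only libraries under 10% mitochondrial, a minimum fold of 1.5 and each set left out. Promoters, 250 bases upstream of RefSeq starts on GRCm38.p6, were searched for motifs on both strands.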

Additional observations from a re-analysis of the deposited data

Results flagged for a closer look

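A library was singled out where its distance to the nearest other library of its group of 8 was a larger share of the group's range than Dixon's critical value for 8 at the 95% level. This held in 24 of 340 groups looked at, and chance gives about 5% of groups. At 11.1 mM, set 7 was the highest library for Klf10, at 2065 CPM (next 926), Tbata, at 41 CPM (next 18), Chek2, at 56.9 CPM (next 13.9), and Zfp831, at 103 CPM (next 1.34); it had the highest mitochondrial share of that group, 27.2%. Set 7 was also highest for the vessel and stroma genes Pecam1, at 36.5 CPM (next 20.5), and Sparc, at 597 CPM (next 312), for Dapl1, at 29.5 CPM (next 15.5), and for Creld2, at 75.2 CPM (next 66.6). In the same set at 16.7 mM, Klf10 was highest at 241 CPM (next 44.4), Tbata at 3.85 CPM (next 1.55), Rpgrip1 at 4.24 CPM (next 2.26) and Zfp831 at 3.04 CPM (next 0.103). Set 5 was highest at 11.1 mM for Mlxipl, at 1031 CPM (next 712), Insrr, at 1004 CPM (next 718), and Ccdc162, at 124 CPM (next 82.8). Set 1 was highest at 11.1 mM for Spp1, at 208 CPM (next 53.7), Lama3, at 2.35 CPM (next 1.22), and Slc4a11, at 2.26 CPM (next 1.27). The remaining cases were S100a9 in set 6 at 16.7 mM, 22.7 CPM (next 3.7), and in set 4 at 11.1 mM, 0.124 CPM (next 0.0511); Irf7 in set 6 at 16.7 mM, 4.58 CPM (next 3.0); Psat1 in set 3 at 16.7 mM, 107 CPM (next 85); Ndufa1 in set 4 at 16.7 mM, 163 CPM (next 137); and Cdc45 in set 8 at 16.7 mM, 10.1 CPM (next 6.63). Leaving out set 7 or any other single set ended the call of none of these genes.

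The glucose change of the genes below differed between genotypes past the threshold; values are the log2 change in hIAPP minus that in mIAPP islets (edgeR interaction, adjusted p under 0.05). For peptide processing and secretion they were Vgf (0.92), Pam (0.74) and Ptprn (0.67). For signalling and transcription they were Nr4a2 (0.97), Crem (0.61), Maff (1.33), Nr4a1 (-1.11), Dusp10 (1.43), Dusp5 (0.58), Dusp8 (1.42), Inpp5f (1.15), Igf1r (1.3), Cxxc4 (-0.71) and Insrr (-0.73). Inflammatory and epithelial genes were Cxcl1 (5.84), Steap4 (4.06), Birc3 (0.91), Nfkb2 (1.31), Sprr1a (4.81), Lama3 (4.33), Lif (2.04), Krt8 (0.63), Krt7 (0.69) and Defb1 (-1.37). S100a9 stood at 10.62, a fitted value that depends on the prior count because its levels outside hIAPP islets at 16.7 mM were near 0, and the value for Cxcl1 rests on few counts in the same way. Sterol, lipid and steroid genes were Star (2.75), Sqle (0.76), Msmo1 (0.77), Apoe (-0.91), Acly (0.58) and Mfsd2a (2.88). Polyamine and stress genes were Odc1 (1.66), Sat1 (2.03), Srxn1 (0.68), Bag3 (0.85), Wipi1 (1.04), Herc4 (1.38) and Bcl2l1 (0.72). Genes of beta cell function and glucose use were Nkx6-1 (-0.57), Trpm5 (-1.17), Mlxipl (-0.71), Khk (-0.77), Pfkp (0.85), Fh1 (0.71), Coq8a (-0.60) and Akr1c19 (-0.73). The others were Aff2 (2.11), Ttyh1 (1.22), Slc4a11 (3.59), Ppa1 (0.35), T2 (-1.29), Cib3 (-1.7), Mesp1 (-1.2), Aif1 (-1.31), Dapl1 (-1.33), Asb11 (-1.13) and Ccdc162 (-0.75). With only the libraries under 10% mitochondrial counts the interaction passed for 7 genes of all tested, so these differences were called from the full set of libraries. With the mitochondrial covariate it passed for 260, and whether each gene above kept its call there is not given.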

How the results depend on the processing

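For 166 genes recomputed under each setting, the other scalings and tests (DESeq2 size factors, DESeq2, limma voom) ended 0 calls and turned 0 directions. Among these 166, leaving out 1 set ended the calls of Ins1 and Ins2, and using only the 16 hIAPP libraries or no low-count filter ended that of Ins2; list members that lost a call without 1 set are given as counts beside their lists. No scaling moved the median of all genes by over 0.1. The mitochondrial covariate ended 24 calls and turned 4 more: Klf10 to 0.98, Tbata to 0.59, Cdc45 to 0.048 and Mc1r to 0.71. Libraries under 10% mitochondrial counts ended 14, and these keep 2 libraries at 11.1 mM; a minimum fold of 1.5 ended 11. Genes that rose numbered 5294, and 1643 with the covariate, 2047 under 10% and 1708 with the minimum fold. Genes that fell numbered 5474, and 1538, 1834 and 2139 under the same settings. Leaving out 1 set gave 4816 to 5447 rises and 4948 to 5536 falls. The interaction, 513 genes, moved most: 260, 7 and 53 under those settings, 959 with DESeq2, 946 with limma voom and 239 to 558 with 1 set left out; the cause was not tested. Without the replicate block, which ignores the pairing by set, it was 196, with 4407 rises and 4989 falls, and of the 166 calls those of Ins1 and Ins2 were lost. The mean difference in the mitochondrial share was -12.53 percentage points, -14.07 to -11.36 with 1 set left out, with an exact permutation p of 0.0009324 without the block. Depth limits Cxcl1, S100a9 and other genes near 0 at 11.1 mM, for which no fold can be given.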
